A study of Homo sapiens with 8 samples.

Results

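The 45 genes described here encode proteins of mitosis and of the kinetochore, the structure that attaches chromosomes to the spindle. They were chosen by symbol: every probe whose platform annotation names 1 of the 45 genes was taken, which gave 69 of the 47323 probes on the array. Of the 45 genes, 26 had 1 probe and 19 had several. All but 1 of the 69 probes exceeded the background level, a normalized intensity of 161.4, on at least 2 arrays, and the exception was 1 of the 3 probes for NUF2. The brightest probe of each gene stands for the gene below, and for all 45 genes that probe was above background on all 8 arrays. The tests covered 12415 genes of the series, the 45 among them.

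A cell enters mitosis when the kinase CDK1, bound to its cyclin partners, becomes active. Kinetochores then assemble on centromeric chromatin, capture microtubules and hold back anaphase through the spindle checkpoint until every chromosome is attached. The messenger RNAs of these proteins rise together in the G2 and M phases and are low in resting cells, so in bulk RNA their level follows the share of cells that are dividing. Fewer dividing cells and less RNA per dividing cell cannot be told apart in such samples.

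The cells were A375-LM3, a derivative of the established human melanoma line A375, and the series was made to find targets of JMJD3, a histone demethylase encoded by KDM6B. The 8 arrays form 4 groups of 2. In culture, cells held either a vector or JMJD3 (titled WT in the labels), and cells of both kinds were also dissociated from a primary tumor that A375-LM3 had formed. Cultured cells were grown for 1 day and tumor-dissociated cells for 3 passages, so tumor growth, dissociation and length of culture differ together between origins. No label says whether the 2 arrays of a group are separate cultures or tumors, and p-values therefore rest on a spread between arrays that may be technical. The sources used here do not give the promoter driving JMJD3, the number of clones or tumors, or the tumors' host.

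Each array had between 19913 and 19923 probes above background, near equal because the arrays share 1 intensity distribution. Replicates correlated across genes with r of 0.993 and 0.990 in culture and 0.982 and 0.981 in tumor-dissociated cells. Replicate 2 of tumor-dissociated vector cells and replicate 1 of tumor-dissociated JMJD3 cells lay at opposite ends of the second principal component, at 32.1 and -31.8. The single KDM6B probe exceeded background on 1 array and so does not check the JMJD3 labels. Of 8 melanocyte lineage markers on the array, SOX10 was above background on all 8 arrays. It measured 230.5 on tumor-dissociated vector replicate 2, 1 of the 2 arrays that stood apart, and between 1188 and 3096 on the other 7. Of 3 MITF probes 1 was above background on all arrays, while TYR, MLANA and S100B were at background on every array. The leukocyte genes PTPRC and CD3E and the endothelial genes CDH5, VWF and KDR were at background on all 8 arrays. Of 5 leukocyte markers, 2 or 3 were above background on each array, and LYZ was called lower by limma in tumor-dissociated than in cultured cells, with vector and with JMJD3. The fourth endothelial marker, PECAM1, was above background only on the tumor-dissociated JMJD3 arrays, at 180.1 and 174.8 against 136.5 to 149.4 elsewhere, and was called higher there than in cultured JMJD3 cells (limma adjusted p = 0.0225). The keratinocyte genes KRT5 and KRT1 were at background on all 8 arrays, and KRT14 was called lower by limma in tumor-dissociated than in cultured vector cells. The 8 fibroblast markers summed to between 1370 and 1527 on the cultured arrays, to 2593 and 2925 in tumor-dissociated vector cells, and to 3865 on replicate 1 and 2387 on replicate 2 of tumor-dissociated JMJD3 cells. Of the 8, COL1A1, COL1A2, COL3A1 and PDGFRB were called higher by limma in tumor-dissociated than in cultured cells, with vector and with JMJD3. Above background were 3 or 4 of these 8 markers on each cultured array and 6 or 7 on each tumor-dissociated array.

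**Figure D1:**
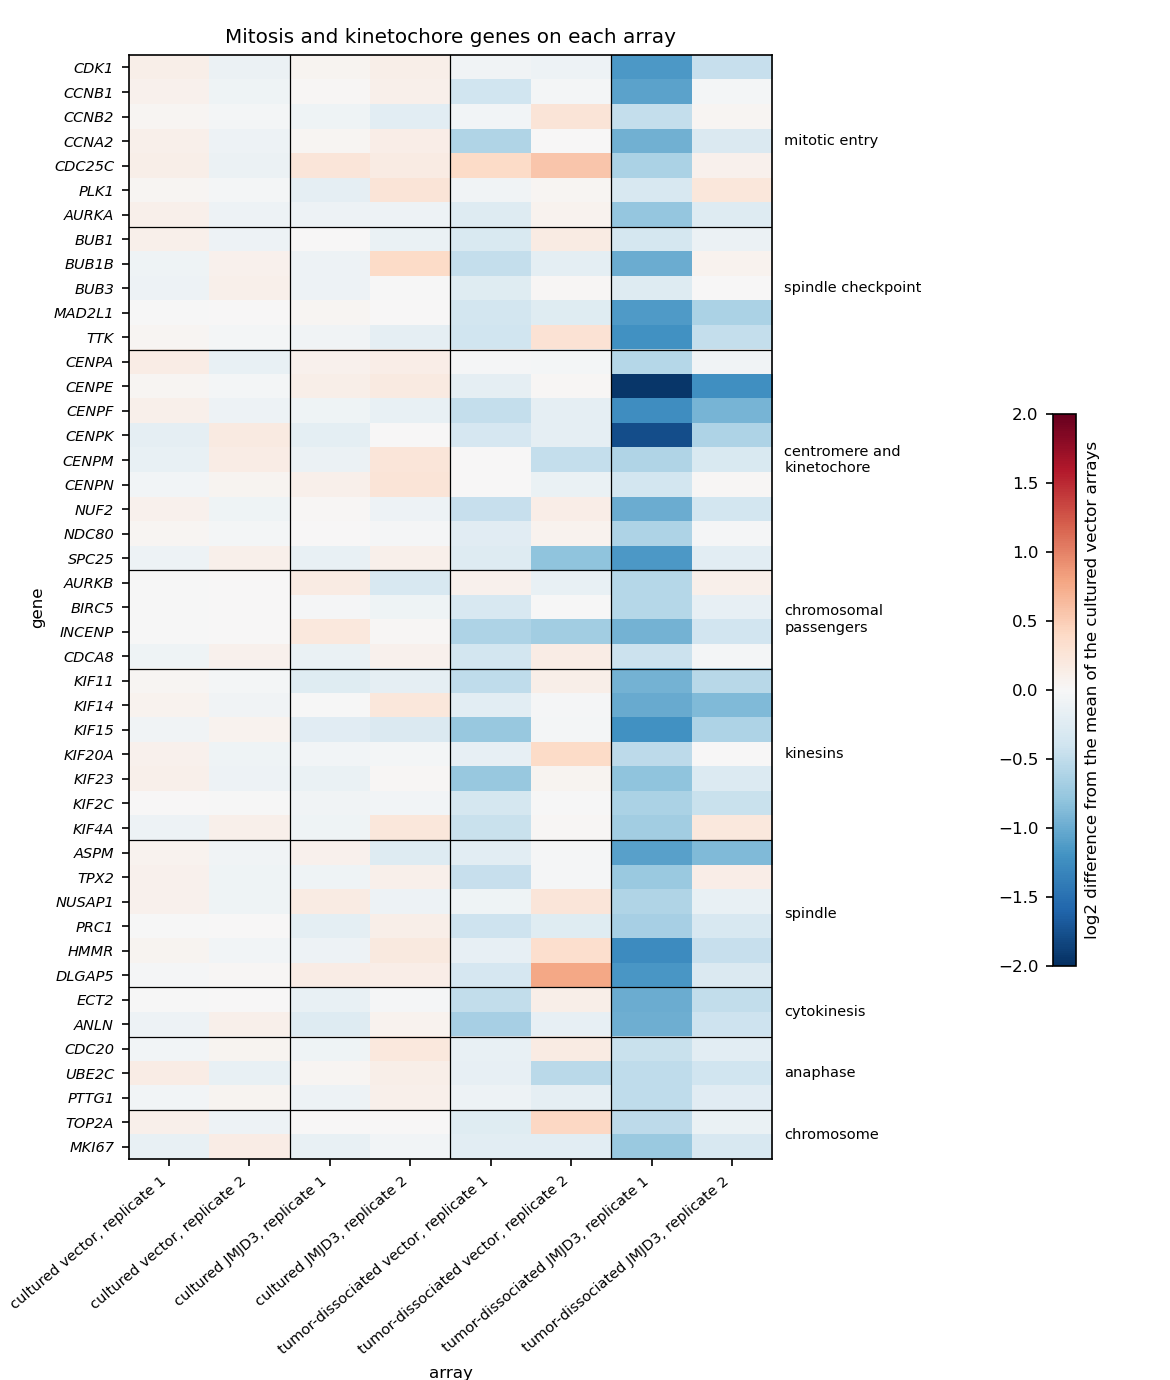
Each row is 1 of the 45 genes, ordered by role, and each column 1 of the 8 arrays. Colour gives the log2 difference from the mean of the 2 cultured vector arrays, and tumor-dissociated JMJD3 replicate 1 is below that mean for all 45 genes, from -0.26 to -1.95.

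In cultured cells the mitosis genes stood at near the same level with JMJD3 as with vector. The median log2 difference over the 45 genes was -0.0032, beside -0.0093 over all 12415 genes, with 23 genes below 0 and 22 above, where 51.9% of all genes were below 0. None of the 45 was called at a limma adjusted p under 0.05, where 0.0886% of all genes were called, and none was lower at an unadjusted p under 0.05, beside 1.8% of all genes. The 45 differences ran from -0.25 for KIF15, a spindle kinesin, to 0.20 for CDC25C, the phosphatase that activates CDK1. The interval of the KIF15 difference was -0.85 to 0.34 and that of the CDC25C difference -0.32 to 0.73, so changes of moderate size in single genes were not detectable with 2 arrays per group.

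The other 4 of the 6 largest differences in culture were -0.21 for KIF11, the plus-end motor that pushes spindle poles apart, 0.18 for CENPN, which recognises centromeric nucleosomes, 0.15 for CENPE and -0.15 for the B-type cyclin CCNB2. Each had a limma adjusted p of 1.00. The 2 JMJD3 arrays were both below the 2 vector arrays for 7 of the 45 genes and both above for 5, beside 18.5% and 17.8% of all genes. MKI67, the proliferation marker Ki-67, measured 288 and 332 in vector cells and 289 and 301 in JMJD3 cells. Its groups overlapped. TOP2A, the topoisomerase that untangles sister chromatids, measured 5710.3 and 4960.3 with vector and 5342 and 5335 with JMJD3, again with overlap.

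In tumor-dissociated cells, by contrast, the mean log2 level after background correction was lower with JMJD3 than with vector for all 45 genes, and 1 was called, CENPE. On the intensity scale KIF4A and INCENP had slightly higher means with JMJD3, 648 against 638 and 424 against 420. The log2 differences ran from -1.51 to -0.0100 with a median of -0.32, while the median over all genes was -0.0011 and 50.2% of all genes were below 0. Of all genes tested, 0.451% were called lower and 0.371% higher, 0.822% together. At an unadjusted p under 0.05, 13 of the 45 were lower, beside 6.89% of all genes.

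CENPE, a kinesin of the outer kinetochore that carries chromosomes to the spindle equator, gave the largest difference. Its intensity was 1404 and 1331 in cultured vector cells, 1476 and 1538 in cultured JMJD3 cells, 1221 and 1390.4 in tumor-dissociated vector cells, and 430.4 and 643 in tumor-dissociated JMJD3 cells. Both arrays of the last group were below the other 6, and the other 3 groups lay close together. Between JMJD3 and vector in tumor-dissociated cells CENPE fell by 1.51 ± 0.23 as a log2 difference (SE from limma, 2 arrays in each group, adjusted p = 0.0212), which is 2.85-fold. A second CENPE probe measured 823 and 741, 767 and 754, 729.8 and 835, and 269 and 357 in the same order of groups. Tested among all 22287 probes, it fell by 1.72 (limma adjusted p = 0.00868). The call for CENPE's main probe was lost when tumor-dissociated JMJD3 replicate 1 or tumor-dissociated vector replicate 2 was left out, at log2 differences of -1.15 (limma adjusted p = 0.0570) and -1.41 (limma adjusted p = 0.168). It was also lost without either cultured JMJD3 array, at an unmoved -1.51 (limma adjusted p = 0.0532 in both), and when the 4 tumor-dissociated arrays were fitted alone (limma adjusted p = 0.140).

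**Figure D2:**
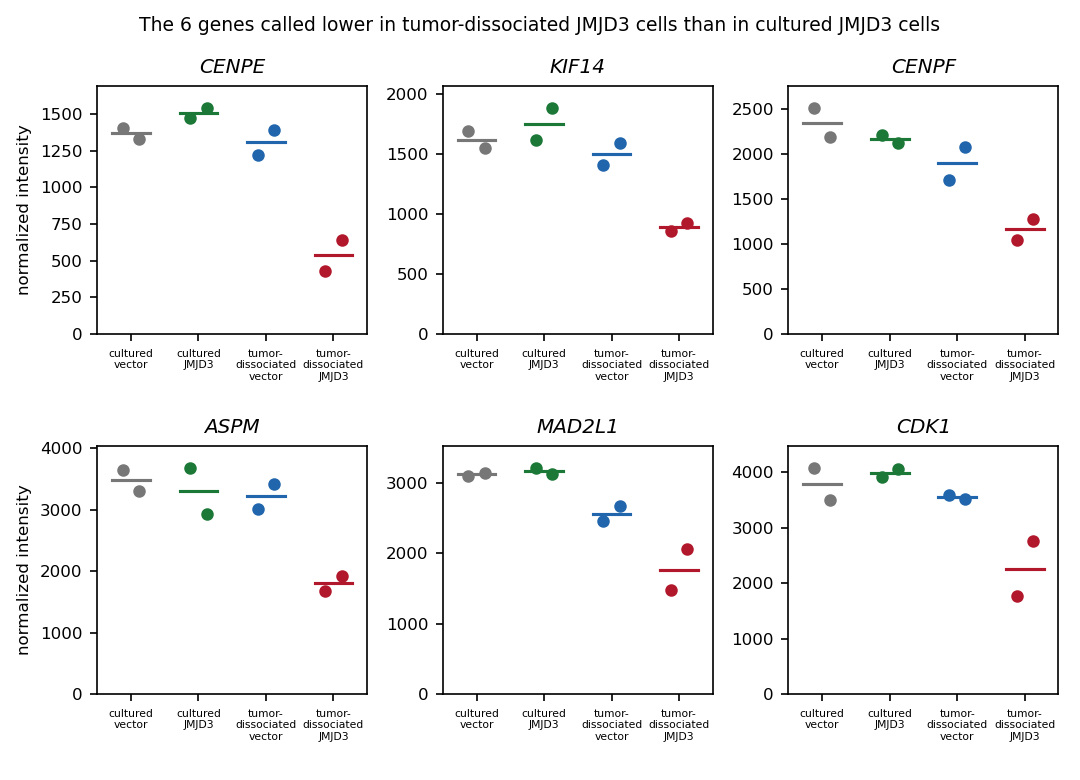
Normalized intensity, on a linear axis from 0, of the 6 genes called lower in tumor-dissociated JMJD3 cells than in cultured JMJD3 cells. Points are arrays, 2 per group, and lines are group means, and in each panel both tumor-dissociated JMJD3 points lie below the other 6.

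Centromere and kinetochore genes had a median log2 difference of -0.29 over 9 members, with 1 called. CENPK, a component of the inner kinetochore network, measured 751 and 824 with vector and 341 and 631 with JMJD3, a log2 difference of -0.94 ± 0.32 (limma adjusted p = 0.238). CENPF, a large protein of the nuclear envelope and outer kinetochore, measured 1714 and 2079 against 1049 and 1280.0, a difference of -0.76 ± 0.18 (limma adjusted p = 0.104). The groups did not overlap for either gene. The microtubule-binding NDC80 complex differed less, at -0.25 for NDC80, -0.52 for NUF2 and -0.15 for SPC25, with overlapping groups for each. CENPA, the histone variant that marks centromeres, stood at -0.29, CENPM at -0.22 and CENPN at -0.11.

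Among the spindle proteins, 6 in number, the median was -0.66 and 0 were called. ASPM, which focuses spindle poles, measured 3013 and 3422 with vector and 1686 and 1925 with JMJD3, a log2 difference of -0.87 ± 0.18 with an interval of -1.27 to -0.47 (limma adjusted p = 0.0707). HMMR, a spindle-associated hyaluronan receptor, measured 2211 and 3073 against 1092 and 1811, a difference of -0.94 ± 0.27 (limma adjusted p = 0.166). For DLGAP5, a microtubule-stabilising protein, the arrays measured 1309 and 2698 against 780.1 and 1340.4. These overlapped, and the difference of -0.95 ± 0.36 did not pass (limma adjusted p = 0.287). Without JMJD3 replicate 1 and vector replicate 2 it was 0.038. NUSAP1 stood at -0.45, the midzone bundler PRC1 at -0.17 and the spindle assembly factor TPX2 at -0.06.

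The 7 kinesins of the set, CENPE aside, had a median of -0.37 with 0 called. KIF14, a motor of the central spindle and midbody, measured 1412 and 1597 with vector and 859 and 929 with JMJD3. Its groups did not overlap, and its difference was -0.82 ± 0.16 with an interval of -1.19 to -0.45 (limma adjusted p = 0.0693). KIF11 stood at -0.55 and KIF15 at -0.51, while KIF20A (-0.37), the microtubule depolymerase KIF2C (-0.35), the midzone motor KIF23 (-0.19) and the chromokinesin KIF4A (-0.02) differed less. KIF4A measured 553 and 723 with vector and 483 and 812 with JMJD3, so its 2 JMJD3 arrays lay on either side of the vector pair.

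The 7 genes of mitotic entry had a median of -0.34 and 0 called. CDK1 itself measured 3594 and 3508 with vector and 1762 and 2763 with JMJD3, a log2 difference of -0.71 ± 0.22 (limma adjusted p = 0.188). CDC25C stood at -0.75, the mitotic kinase AURKA at -0.43, CCNB1 at -0.34, CCNA2 and CCNB2 at -0.32 each, and the kinase PLK1 at -0.04. PLK1 measured 484 and 515 with vector and 424 and 569.9 with JMJD3, which overlapped. Checkpoint genes had a median of -0.15 over 5 members. TTK, the kinase that starts checkpoint signalling, stood at -0.78 ± 0.28 and MAD2L1, which restrains CDC20, at -0.58 ± 0.19, both without overlap and without a call (limma adjusted p = 0.255 and 0.207). BUB1 (-0.15), BUB1B (-0.13) and BUB3 (-0.02) overlapped between groups.

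Smaller differences were seen for the chromosomal passenger complex, whose 4 genes had a median of -0.16 and overlapped in every case: the kinase AURKB at -0.20, survivin (BIRC5) at -0.20, borealin (CDCA8) at -0.13 and INCENP at -0.0100. Of the 3 anaphase genes, the activator CDC20 stood at -0.33, the separase inhibitor PTTG1 at -0.23 and the ubiquitin-conjugating enzyme UBE2C at -0.10. The cytokinesis genes ECT2 and ANLN stood at -0.56 and -0.29, TOP2A at -0.41 and MKI67 at -0.32. In all, the 2 JMJD3 arrays were both below the 2 vector arrays for 17 of the 45 genes, against 19.6% of all genes, and both above for 0, against 19%. Relative to all 6 other arrays, the 2 tumor-dissociated JMJD3 arrays were lowest for 15 of the 45, beside 9.61% of all genes. These 15 were MKI67, CDK1, MAD2L1, CENPE, CENPF, CENPK, CDC20, KIF11, KIF2C, KIF14, TTK, NUSAP1, PTTG1, HMMR and ASPM.

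**Figure D3:**
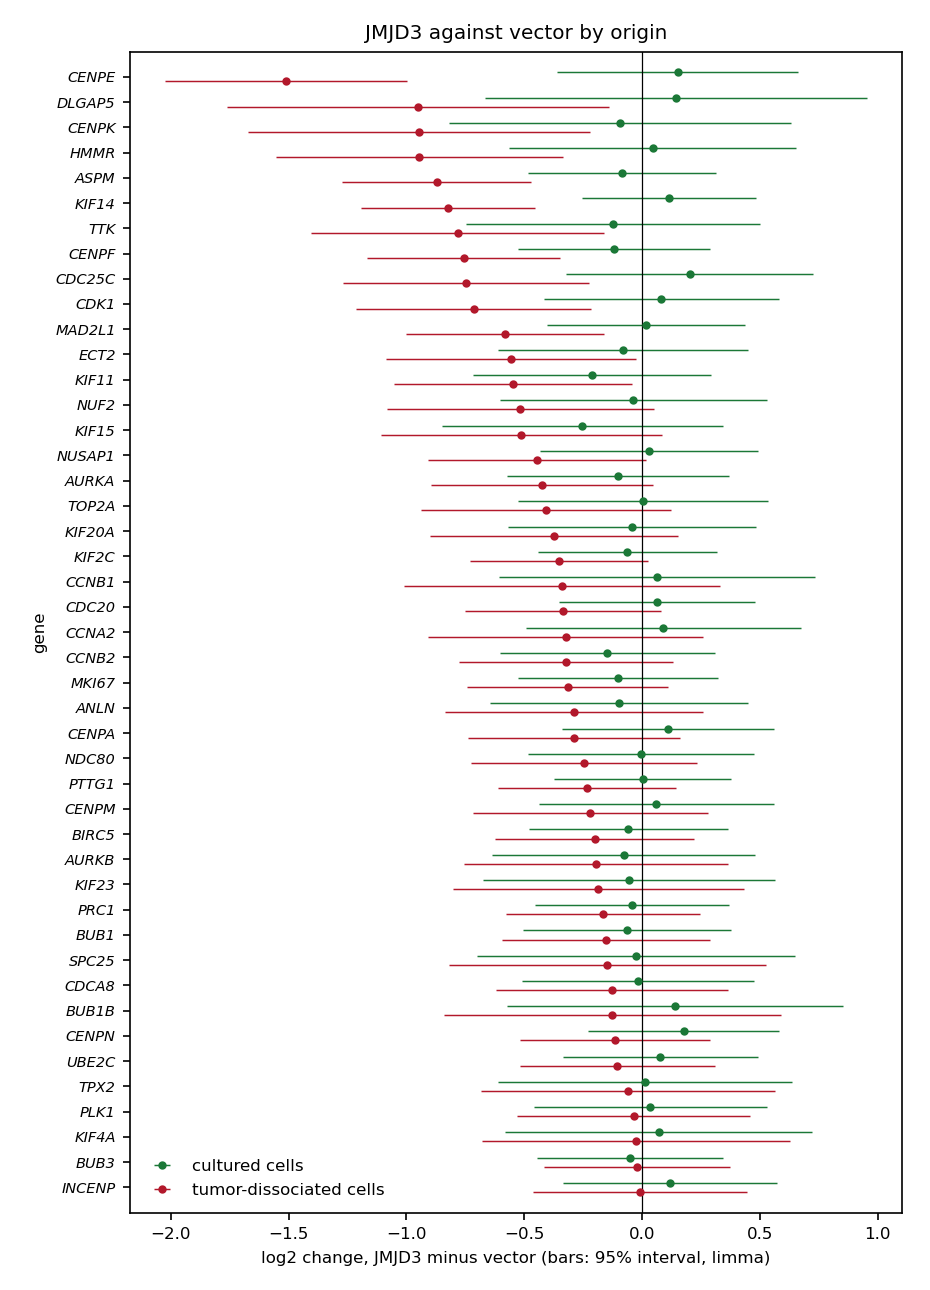
Log2 difference of JMJD3 minus vector for each of the 45 genes, with 95% intervals from limma, in cultured cells (green) and tumor-dissociated cells (red). The red points lie below 0 for all 45 genes, and the intervals of 13 exclude 0, while CENPE alone was called by the p adjusted over 12415 genes.

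The lower levels across the whole set rested to a large extent on 1 array. Replicate 1 of the tumor-dissociated JMJD3 cells had the lowest of the 8 values for 44 of the 45 genes, where 19.6% of all genes had their lowest value on that array. The exception was UBE2C, lowest on replicate 2 of the tumor-dissociated vector cells, where 16.3% of all genes were lowest. Replicate 1 was below replicate 2 within the JMJD3 group for all 45 genes, beside 46.7% of all genes, and within the vector group for 35, beside 50.8%. Against the cultured vector mean the 45 genes had a median of -0.74 on replicate 1 and -0.27 on replicate 2, and of -0.26 and -0.0078 on replicates 1 and 2 of the tumor-dissociated vector cells. The medians on the other 2 groups' arrays were between -0.0755 and 0.0327. The spread between replicates of these 45 genes was larger after tumor growth, as it was over all genes. The log2 SD of the 45 genes was 0.308 in vector and 0.422 in JMJD3 cells there, beside 0.280 and 0.291 over all genes. In culture it was 0.123 and 0.147, beside 0.184 and 0.208.

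The comparison of single arrays showed which genes were low on both. Replicate 1 of JMJD3 was below replicate 1 of vector for 45 genes (median -0.45) and below replicate 2 for 44 (median -0.82). Replicate 2 of JMJD3 was below replicate 2 of vector for 35 genes (median -0.30) but below replicate 1 for only 19 (median 0.024). Without replicate 1 of tumor-dissociated JMJD3, the median over the 45 genes was -0.0894, and without replicate 2 it was -0.60. The number called moved with the array left out, for these genes and over all genes. Without tumor-dissociated vector replicate 1 the median was -0.52. With both arrays of the second component left out it was 0.024, while CENPE stood at -1.05, ASPM at -0.68 and KIF14 at -0.66. On replicate 2 alone, CENPE was -1.23, CENPF -0.93, ASPM -0.89 and KIF14 -0.88 relative to the cultured vector mean, and the next, MAD2L1, was -0.63. At the other end PLK1 (0.23), KIF4A (0.21), TPX2 (0.14) and AURKB (0.11) were above that mean on replicate 2. With 2 arrays, a difference in preparation and a difference in the cells cannot be told apart.

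**Figure D4:**
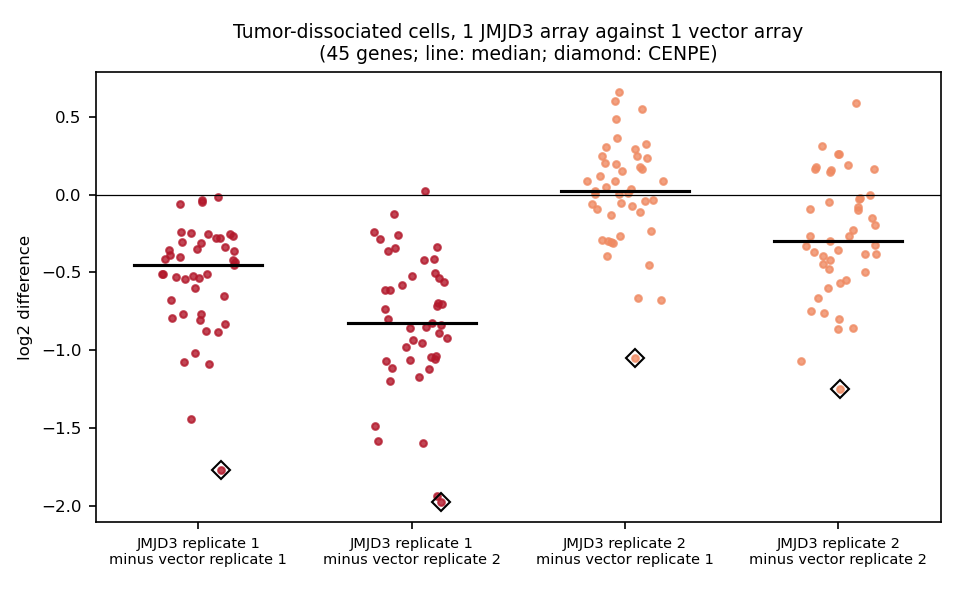
Log2 difference of 1 tumor-dissociated JMJD3 array minus 1 tumor-dissociated vector array, for each pairing and each of the 45 genes, with the median as a line and CENPE as a diamond. JMJD3 replicate 1 gives medians of -0.45 and -0.82 and replicate 2 gives 0.024 and -0.30, and CENPE lies at or below -1.05 in all 4 pairings.

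Many genes of the G2 and M phases carry a short promoter element, the cell cycle genes homology region or CHR, which recruits the MuvB complexes that repress them in resting cells and activate them before mitosis. It often lies downstream of CCAAT boxes bound by the factor NF-Y. RefSeq promoter windows of GRCh38.p14, from 250 bases before to 50 after an annotated start, were at hand for 38 of the 45 genes. The letters TTTGAA or the variant TTCGAA, on either strand, were in a window of 30 of these 38 genes (78.9%), beside 19.5% of all 27305 genes with a window. CCAAT on either strand was in 31 (81.6%), beside 39.7% of all genes, and both kinds were in 25 (65.8%), beside 7.85%. Their letters overlapped in 2 of the 45 windows of these genes. The 8 genes without CHR letters were AURKB, CCNA2, CCNB1, CENPE, CENPK, KIF20A, KIF2C and PTTG1. In tumor-dissociated cells the log2 difference with JMJD3 had a median of -0.33 over the 30 genes with CHR letters and -0.35 over the 8 without. A match of letters is not evidence of a bound site, and its absence covers only these windows and these exact letters.

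Windows of 4 genes that were low on both tumor-dissociated JMJD3 arrays are shown. They set CENPE, whose window has neither kind of letters, beside genes whose windows have both. The windows read 5′ to 3′ on the gene's strand. Capitals mark CHR letters (TTTGAA, or TTCAAA on the other strand) and CCAAT letters (CCAAT, or ATTGG on the other strand). The CENPE window is chr4:103198294-103198593 on the minus strand, that of ASPM chr1:197146620-197146919 on the minus strand, that of KIF14 chr1:200620702-200621001 on the minus strand, and that of CDK1, the downstream of its 2 windows, chr10:60778228-60778527 on the plus strand.
CENPE: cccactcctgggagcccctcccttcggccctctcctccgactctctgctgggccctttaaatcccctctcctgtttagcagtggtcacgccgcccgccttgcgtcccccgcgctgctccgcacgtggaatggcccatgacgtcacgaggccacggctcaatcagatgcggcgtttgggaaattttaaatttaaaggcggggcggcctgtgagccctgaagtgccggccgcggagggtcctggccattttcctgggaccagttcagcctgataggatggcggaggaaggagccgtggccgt
ASPM: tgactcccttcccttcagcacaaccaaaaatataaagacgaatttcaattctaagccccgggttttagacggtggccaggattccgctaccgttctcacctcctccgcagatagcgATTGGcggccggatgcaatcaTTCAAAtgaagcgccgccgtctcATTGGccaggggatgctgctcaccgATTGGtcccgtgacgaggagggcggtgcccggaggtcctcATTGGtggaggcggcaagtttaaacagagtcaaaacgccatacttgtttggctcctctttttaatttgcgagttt
KIF14: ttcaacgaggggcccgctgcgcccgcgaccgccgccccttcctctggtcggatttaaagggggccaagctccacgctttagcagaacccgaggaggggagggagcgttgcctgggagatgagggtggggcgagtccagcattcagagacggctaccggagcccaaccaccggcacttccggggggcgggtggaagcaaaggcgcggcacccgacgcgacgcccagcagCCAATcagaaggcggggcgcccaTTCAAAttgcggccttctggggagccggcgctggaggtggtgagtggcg
CDK1: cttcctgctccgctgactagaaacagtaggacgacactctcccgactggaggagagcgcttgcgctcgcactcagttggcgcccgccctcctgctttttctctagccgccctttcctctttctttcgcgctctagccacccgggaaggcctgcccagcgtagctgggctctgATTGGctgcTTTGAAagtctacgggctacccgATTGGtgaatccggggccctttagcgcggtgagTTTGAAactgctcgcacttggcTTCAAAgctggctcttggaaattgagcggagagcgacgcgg
Counted from the start site, the CHR letters begin at -113 in ASPM, at 2 in KIF14, and at -69, -13 and 10 in CDK1. Over all windows of the 45 genes, 32 of 46 CHR matches began within 50 bases of the start site. MAD2L1 and CENPF had theirs at 25 and 41.

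**Figure D5:**
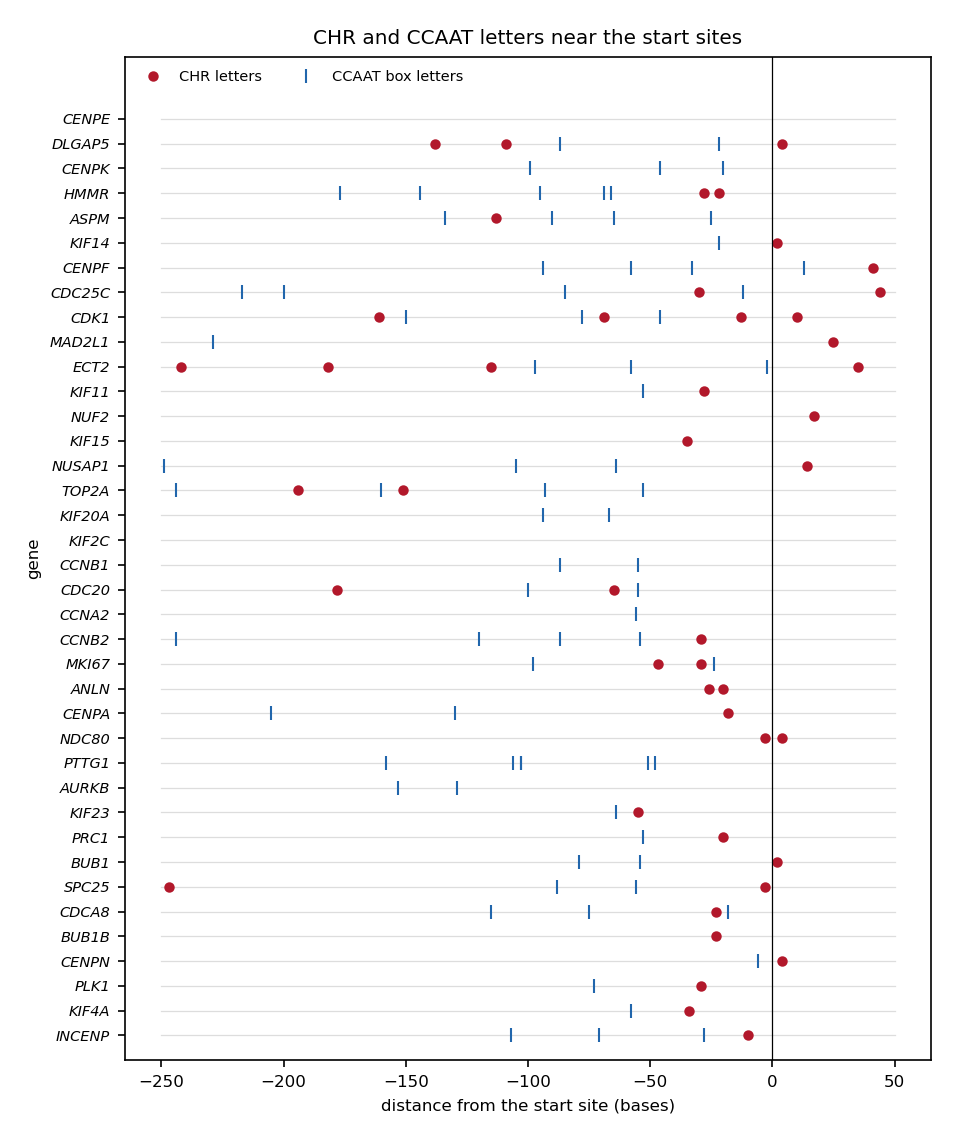
Positions of CHR letters (red points) and CCAAT letters (blue ticks) in the windows of 38 genes, by distance from the annotated start site in bases, with genes ordered by their log2 difference with JMJD3 in tumor-dissociated cells, the most negative at the top. The rows of CENPE and KIF2C are empty, and the CHR matches gather near the start site, with a median position of -27.

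Origin was compared separately in vector and in JMJD3 cells. In vector cells, tumor-dissociated against cultured, 0 of the 45 genes were called by limma, where 10.1% of all genes were (3.99% lower and 6.15% higher), and 1 was lower at an unadjusted p under 0.05, beside 12.8% of all genes. The median log2 difference was -0.14, beside -0.0256 over all genes, with 37 genes below 0 and 8 above, where 52.9% of all genes were below 0. INCENP, the scaffold of the passenger complex, had the largest difference among the main probes, at 601 and 604 in culture and 428 and 412 after tumor growth (log2 difference -0.66 ± 0.20, limma adjusted p = 0.0731). Its groups did not overlap. The others of the 6 largest were SPC25 at -0.53, CDC25C at 0.47, ANLN at -0.41, KIF15 at -0.40 and KIF23 at -0.36. The other CDC25C probes, of similar brightness, gave only 0.11 and 0.05, and the other SPC25 probe, near background, gave 0.13. The other INCENP probe, also near background, gave -0.30 (limma adjusted p = 0.503 among all 22287 probes). Without tumor-dissociated vector replicate 1, KIF23 stood at 0.050. A second UBE2C probe, far dimmer than the main one, measured 447 and 477 in culture and 315 and 272 after tumor growth. Tested among all 22287 probes it fell by 0.92 (log2 difference -0.92, limma adjusted p = 0.0138), where the main probe stood at -0.35. INCENP was called, at the same -0.66, without either tumor-dissociated JMJD3 array. Tumor-dissociated vector arrays were both below the cultured ones for 11 of the 45 genes and both above for 1, CDC25C, beside 30.8% and 26.7% of all genes.

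In JMJD3 cells the log2 levels of all 45 genes were lower on average in tumor-dissociated than in cultured cells, with a median log2 difference of -0.49 beside -0.0118 over all genes, of which 51.2% were below 0. Of the 45, 6 were called lower and 0 higher, where 2.2% of all genes were called lower and 3.76% higher, 5.96% together. At an unadjusted p under 0.05, 22 were lower, beside 12.1% of all genes. This comparison shares its 2 tumor-dissociated arrays with that of JMJD3 against vector. CENPE fell by 1.74 ± 0.23 (limma adjusted p = 0.00612), a 3.33-fold difference. KIF14, at 1617 and 1884 in culture and 859 and 929 after tumor growth, fell by 1.05 ± 0.16 (limma adjusted p = 0.0129). For CENPF the arrays measured 2211 and 2127 against 1049 and 1280.0, a fall of 0.97 on the log2 scale (log2 difference -0.97 ± 0.18, limma adjusted p = 0.0210). ASPM went from 3674 and 2935 to 1686 and 1925 (-0.90 ± 0.18, limma adjusted p = 0.0252) and MAD2L1 from 3200.4 and 3121 to 1482 and 2052 (-0.90 ± 0.19, limma adjusted p = 0.0299). CDK1 went from 3908 and 4064 to 1762 and 2763 (-0.89 ± 0.22), just inside the threshold (limma adjusted p = 0.0499). Among all 22287 probes, second probes of CENPE (-1.68), NUF2 (-1.05) and UBE2C (-0.97) also passed (limma adjusted p = 0.00476, 0.0329 and 0.0193), and the main probes of NUF2 (-0.64) and UBE2C (-0.53) did not. The second MAD2L1 probe gave only -0.32 and did not pass (limma adjusted p = 0.433). For CDK1 neither probe passed in that test, at -0.89 and -0.75 (limma adjusted p = 0.0540 and 0.0879).

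None of these 6 genes overlapped between the 2 groups, and 34 of the 45 had both tumor-dissociated arrays below both cultured ones, where 29% of all genes did. None had both above, where 26.6% of all genes did. The 11 that overlapped were CCNB2, AURKB, PLK1, BUB1, BUB1B, BUB3, NDC80, KIF20A, KIF4A, TPX2 and CDCA8. Without single arrays the median over the 45 genes lay between -0.75 and -0.23. The count of called members moved with the array left out, as did the count over all genes. In a fit of only the 4 JMJD3 arrays, CENPE and KIF14 were called. Over 19 alternative settings the call was lost in 14 for CDK1, in 8 for MAD2L1, in 5 each for CENPF and ASPM, in 2 for KIF14 and in 1 for CENPE. The summed intensity of the fibroblast markers was highest on tumor-dissociated JMJD3 replicate 1, where these genes were lowest, and PDGFRB made up 2000 of the 3865 there. Its genes did not all differ in the same direction: with JMJD3 in tumor-dissociated cells 5 of its 7 tested genes were below 0 and 2 above (median -0.38), and COL3A1 was called lower (-1.44 ± 0.21, limma adjusted p = 0.0210). The part of these markers in the result was not tested.

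The JMJD3 effect was then compared between origins by its interaction term. None of the 45 genes was called, where 0.105% of all genes were, 0.0805% lower and 0.0242% higher. The effect was more negative in tumor-dissociated cells for 44 of the 45 genes, beside 49.4% of all genes, with a median difference of effects of -0.29 beside 0.0054 over all genes, and 8 were lower at an unadjusted p under 0.05, beside 3.71% of all genes. For CENPE the effect was 0.15 in culture and -1.51 in tumor-dissociated cells, a difference of -1.66 ± 0.32 with an interval of -2.39 to -0.94 (limma adjusted p = 0.168). It passed without tumor-dissociated JMJD3 replicate 2, at -2.02. KIF14 had a difference of effects of -0.94 ± 0.23 (limma adjusted p = 0.307), and DLGAP5 (-1.10), HMMR (-0.99), CDC25C (-0.95) and CENPK (-0.85) completed the 6 largest. On their other probes CENPE stood at -1.68, DLGAP5 at -0.76, HMMR at -0.61 and CDC25C at -0.35 and -0.17. A difference in the JMJD3 effect between origins was therefore not shown by this test for any single gene of the set.

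Where several probes of a gene were tested, their signs mostly matched. In tumor-dissociated cells, 16 of 19 such genes had the same sign of the JMJD3 difference on all their probes, and the exceptions were BUB3, INCENP and SPC25. BUB3, a checkpoint protein, had differences of -0.02, 0.10, -0.41 and 0.08 on its 4 probes. A second probe of NUF2, at 403 and 527 with vector and 261 and 331 with JMJD3, gave -0.91 where the main probe gave -0.52, and a second KIF11 probe gave -0.90 where the main probe gave -0.55. Other genes had smaller falls on further probes, among them HMMR (-0.50 against -0.94) and MAD2L1 (-0.40 against -0.58). Further CDC25C probes gave -0.34 and -0.15 where the main probe gave -0.75. In culture only 7 of the 19 agreed in sign, at differences near 0.

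Of 24 further kinetochore genes, 0 were called with JMJD3 in tumor-dissociated cells, with a median of -0.30 and 22 below 0. CENPH of the inner network stood at -0.77 ± 0.23 and CENPU at -0.72 ± 0.29. Between origins in JMJD3 cells the median was -0.46 and 1 was called, SKA3, of a complex that couples kinetochores to microtubule ends (-1.15 ± 0.24, limma adjusted p = 0.0291). In that comparison 2.2% of all genes were called lower and 3.76% higher. Of 17 cohesin and condensin genes, 0 were called with JMJD3 in tumor-dissociated cells (median -0.31), led by the condensin subunit SMC4 at -0.75 ± 0.22 and the centromeric cohesin protector SGO2 at -0.66 ± 0.30. In JMJD3 cells all 17 were below 0 between origins and 2 were called lower after tumor growth, the condensin subunit SMC2 (-0.92 ± 0.16, limma adjusted p = 0.0160) and the separase gene ESPL1 (-0.94 ± 0.22, limma adjusted p = 0.0420). The 16 tested genes of the anaphase-promoting complex and its regulators had 0 called in each of the 5 comparisons, and its inhibitor FBXO5 stood at -0.71 ± 0.23 with JMJD3 in tumor-dissociated cells, followed by ANAPC10 at -0.30.

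Over 21 regulators of the late cell cycle program the median with JMJD3 in tumor-dissociated cells was -0.0272 with 0 called, led by LIN9 at -0.64 ± 0.18 and LIN54 at -0.35 ± 0.20. LIN9, a core MuvB subunit, was called lower between origins in JMJD3 cells (-1.05 ± 0.18, limma adjusted p = 0.0153), and the MuvB subunit LIN52 between origins in vector cells (-0.58 ± 0.16, limma adjusted p = 0.0461). E2F8 was also called lower there, at 190.6 and 190.0 in culture. It was below background on both tumor-dissociated vector arrays (150.9 and 156.7), so no fold is given. Of all genes, 2.2% were called lower between origins in JMJD3 cells and 3.99% in vector cells. FOXM1, the transcription factor that joins MuvB to drive mitotic genes, measured 878 and 985 with vector and 904 and 1301 with JMJD3 in tumor-dissociated cells, with overlap. Of 7 tested CDK inhibitor genes, CDKN1A, which encodes p21, had the largest difference, 0.96 ± 0.21 (limma adjusted p = 0.0836), followed by CDKN1C at -0.46, and 0 were called. The list's median was -0.11. Between origins in JMJD3 cells CDKN3, a phosphatase that acts on CDK2, was called lower (-0.69 ± 0.17, limma adjusted p = 0.0472). CDKN1A measured 2533 and 2692 in cultured vector cells and 3651 and 4043 in cultured JMJD3 cells. In tumor-dissociated cells CDKN1A measured 3368 and 2958 with vector and 7362 and 4943 with JMJD3. Its highest value was on the array with the lowest mitosis genes, and its part in their levels was not tested.

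DNA replication genes showed another order of groups. With JMJD3 in tumor-dissociated cells, 18 of them had a median of 0.0280 and 0 called, led by MCM10 at -0.35 and CDC6 at 0.28, while the mitosis genes had -0.32. Between origins all 18 were below 0 in both kinds of cells, with medians of -0.54 in vector and -0.48 in JMJD3 cells. The helicase subunit GINS4 was the 1 called, in vector cells (-1.45 ± 0.35, limma adjusted p = 0.0326), where 3.99% of all genes were called lower. In JMJD3 cells 2.2% of all genes were called lower. The mitosis genes had medians of -0.14 and -0.49 in the same 2 comparisons. The difference between the 2 lists was not tested.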

How the data were processed

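RNA from 8 arrays, 2 in each of 4 groups, was hybridised to Illumina HumanHT-12 V4.0 BeadChips, read on a HiScan and processed by GenomeStudio (framework 2011.1, Gene Expression module 1.9.0), per the labels' design text and the submitters' processing notes. The deposited intensity values are on a linear scale. How the authors normalized them, the sources used here do not say. Sorted columns were within 0.0057 log2 of each other, and the lowest value was 110.7, so the arrays share 1 distribution with no background subtracted. A second table was not used, because its 16 value columns carry no sample's name.

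The background level was the one-sided 0.01 point above the mode (139.7) of all intensities. Values were corrected by normexp (offset 16) and taken to log2. Probes above background on at least 2 arrays (22287) were kept, with the brightest probe of each of 12415 genes. Platform annotation gave 30113 probes 1 symbol, 8 several and 17202 none, and 30074 matched RefSeq by Entrez identifier. Group means were compared with limma 3.58.1 in R 4.3.3 (4 residual and 5.11 prior degrees of freedom), with Benjamini-Hochberg adjustment over all genes and calls at an adjusted p under 0.05. An exact permutation test of 2 against 2 arrays cannot go below 0.333. Precision is limited by the number of arrays. The fit was run on simulated data with independent noise for each gene and array. Such data do not cover a deviation that many genes share on a single array. Members, gene lists and roles were chosen with earlier results of these data known. All 45 members are named. In each comparison called members are given with values, or the 6 with the largest differences where fewer were called, and of other lists the called genes or the 2 largest, the latter printed for JMJD3 against vector in tumor-dissociated cells. Alternatives covered background correction, filters, probe choice, cyclic loess, array weights, the samples fitted, a replicate block and leaving out arrays.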

Additional observations from a re-analysis of the deposited data

How the results depend on the processing

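With JMJD3 in tumor-dissociated cells the count of called mitosis genes, 1 in the report, was 2 without normexp, 3 with an offset of 50, 0 in a fit of only the groups compared, 0 without the 2 arrays that stood apart, and between 0 and 7 without single arrays. The median of -0.32 became 0.024 without the 2 arrays that stood apart and lay between -0.60 and -0.0894 without single arrays. DLGAP5 was 0.038 without those 2 arrays, against -0.95. For origin in vector cells the count of 0 was 1 with the mean of a gene's probes (UBE2C), 1 in a fit of only the groups compared, 1 with array weights, 2 without the 2 arrays that stood apart, and 0 to 1 without single arrays. There KIF23 lay between -0.76 and 0.050 without single arrays. For origin in JMJD3 cells the count of 6 was 2 in a fit of only the groups compared, 2 without the 2 arrays that stood apart and 0 to 16 without single arrays, and the median of -0.49 was -0.23 without the 2 arrays and -0.75 to -0.23 without single arrays. For the interaction the count of 0 was 0 to 1 without single arrays, and the median of -0.29 was 0.10 without the 2 arrays and -0.56 to -0.0894 without single arrays. In culture the count was 0 in every alternative. With cyclic loess the counts were 0, 1, 0, 5 and 0 in the order of the report, so only that for origin in JMJD3 cells moved, from 6 to 5. The cause of these shifts was not tested.

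Deviations of same-numbered arrays correlated at 0.371 between cultured vector and cultured JMJD3 cells. Over the other pairs of groups the correlations were 0.046 to 0.146, with 0.105 between the tumor-dissociated groups. The labels give the numbers no shared source. With a replicate block the counts were 0, 1, 0, 9 and 0 members, and over all genes 168 against 102 for JMJD3 in tumor-dissociated cells, 1161 against 740 for origin in JMJD3 cells and 35 against 13 for the interaction. For JMJD3 in tumor-dissociated cells the all-gene count was 55 to 150 in the other settings that used all 8 arrays, 15 in a fit of only the groups compared, 25 without the 2 arrays that stood apart and 16 to 426 without single arrays. In culture it was 11, against 5 without normexp, 44 in a fit of only the groups compared and 0 to 36 without single arrays. For origin it ranged without single arrays from 348 to 1581 in vector and from 39 to 1307 in JMJD3 cells, against 1258 and 740, and in JMJD3 cells it was 418 without the filter, 263 in a fit of only the groups compared and 368 without the 2 arrays. For the interaction it was 7 with probes above background on all 8 arrays and 0 to 69 without single arrays. That fit needs all groups, so only the groups compared was not run for it.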
